A study of Mus musculus with 8 samples.

Results

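The Kruppel-like factors (Klf) are a family of DNA-binding transcription factors, and 10 of them were followed here in mouse neural progenitor cells: Klf2, Klf3, Klf4, Klf5, Klf6, Klf7, Klf9, Klf10, Klf13 and Klf15. Every non-control probe whose accession led to one of these symbols in the RefSeq gene table was taken, which gave 15 probes of 41174 on the array. Tests were run on the 25725 probes that at least 1 group showed well above background on both of its arrays, and these took in 14 of the 15. Klf2, Klf3, Klf6, Klf9 and Klf15 had 2 probes each and the other genes had 1. The brightest probe of a gene, called probe 1 here, stands for the gene in counts, and signals of different probes are not set against each other.

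The RNA came from N31 cells, a neural progenitor (NPC) line made from mouse embryonic stem cells, in 4 groups of 2 arrays. The EGFP NPC group expressed the fluorescent protein EGFP as the control and the W20 NPC group expressed W20, which the title of the series places among bacterial proteins that speed up reprogramming. Both were grown on gelatin in RHB basal medium with EGF and bFGF at 10 ng/ml each. The EGFP 72 h and W20 72 h groups were such cells 72 h after reprogramming began. The label on their culture runs its parts together and was read as follows: Dox at 40 ng/ml was given for 48 h in that medium and for the last 24 h in GMEM with 10% KSR, ACTH, pyruvate, nonessential amino acids, 2-mercaptoethanol and LIF at 1000 U/ml, with Dox kept at the same concentration. All 4 groups are thus the same cell line. The labels do not say which genes Dox switches on, and the stretch of the Klf4 transcript that the array probe matches is not given in the sources used here. Signal from the chromosomal Klf4 gene and from an introduced copy, if the cells carried one, can therefore not be told apart. The labels do not say whether replicates came from separate cultures, so the spread behind each p-value is that between arrays and may be technical.

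Kruppel-like factors bind GC-rich DNA and the related CACCC box through zinc fingers at the end of the protein, and the rest of the protein decides which partners are brought to the site. Klf2, Klf4, Klf5, Klf6 and Klf7 mostly activate transcription. Klf3 represses through the corepressor CtBP, and Klf9, Klf10 and Klf13 repress through Sin3 complexes. Klf2, Klf4 and Klf5 sustain self-renewal of mouse embryonic stem cells, Klf4 is one of the classical reprogramming factors, and in neural cells Klf4 and Klf9 restrain axon growth while Klf7 favours it.

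Promoters of 8 of the 10 members were in the RefSeq table (GRCm38.p6, 250 bases before to 50 after the gene's start). The 5 printed here belong to members that moved in opposite directions over the 72 h: Klf4 and Klf7 fell, and Klf3, Klf9 and Klf13 rose. The windows are chr4:55532426-55532725 on the minus strand for Klf4, chr1:64121340-64121639 on the minus strand for Klf7, chr5:64803271-64803570 on the plus strand for Klf3, chr19:23140976-23141275 on the plus strand for Klf9 and chr7:63938866-63939165 on the minus strand for Klf13. Each is written 5′ to 3′ along its gene. Capitals mark the letters CACCC (the CACCC box) and GGGCGG (the GC box) on either strand, and matches of both may overlap.
Klf4: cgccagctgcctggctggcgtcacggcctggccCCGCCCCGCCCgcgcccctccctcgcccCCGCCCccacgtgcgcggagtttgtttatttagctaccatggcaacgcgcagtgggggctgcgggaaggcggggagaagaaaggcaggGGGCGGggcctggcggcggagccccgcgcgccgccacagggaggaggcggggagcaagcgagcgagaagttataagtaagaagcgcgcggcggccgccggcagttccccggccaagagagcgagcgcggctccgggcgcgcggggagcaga
Klf7: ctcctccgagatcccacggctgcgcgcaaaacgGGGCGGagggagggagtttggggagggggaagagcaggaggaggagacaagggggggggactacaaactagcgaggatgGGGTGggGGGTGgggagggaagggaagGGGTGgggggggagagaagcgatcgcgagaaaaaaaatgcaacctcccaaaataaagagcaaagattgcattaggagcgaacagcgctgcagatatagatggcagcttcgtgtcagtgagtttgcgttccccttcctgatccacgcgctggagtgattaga
Klf3: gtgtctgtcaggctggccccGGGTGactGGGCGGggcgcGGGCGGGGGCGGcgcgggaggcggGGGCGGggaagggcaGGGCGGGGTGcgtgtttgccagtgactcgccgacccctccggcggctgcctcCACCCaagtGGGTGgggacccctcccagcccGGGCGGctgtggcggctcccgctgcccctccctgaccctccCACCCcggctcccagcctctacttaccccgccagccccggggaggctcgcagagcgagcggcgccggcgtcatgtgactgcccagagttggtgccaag
Klf9: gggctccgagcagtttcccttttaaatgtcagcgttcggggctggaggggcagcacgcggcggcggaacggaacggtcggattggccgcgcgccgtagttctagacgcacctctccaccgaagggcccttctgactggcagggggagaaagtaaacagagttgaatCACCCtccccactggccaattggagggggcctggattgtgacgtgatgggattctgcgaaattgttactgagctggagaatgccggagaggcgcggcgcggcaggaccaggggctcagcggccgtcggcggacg
Klf13: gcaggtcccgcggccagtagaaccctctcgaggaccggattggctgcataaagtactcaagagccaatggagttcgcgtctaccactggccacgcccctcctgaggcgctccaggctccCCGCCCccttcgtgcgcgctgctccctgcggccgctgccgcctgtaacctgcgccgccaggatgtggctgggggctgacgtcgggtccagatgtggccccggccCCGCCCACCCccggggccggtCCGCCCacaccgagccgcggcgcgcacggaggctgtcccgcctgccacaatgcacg

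The Klf4 window held 4 GC boxes and no CACCC box, the Klf7 window 1 and 3, and the Klf3 window 6 and 5. The Klf13 window held 3 GC boxes and 1 CACCC box, and the Klf9 window 1 CACCC box and no GC box. Over the 8 members, 6 windows held a CACCC box and 7 a GC box, against 57.5% and 35.7% of the 32851 windows of the table. The 8 windows were also GC-rich, with 58.3% to 76.7% G and C against a median of 52.7%. The palindromic letters TTCNNNGAA, which STAT factors bind, occurred in 1 window, that of Klf9, and in 8.30% of all windows. The palindromic glucocorticoid element occurred in 0 of the 8 windows and in 0.475% of all. A match is a description of letters only.

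Values below are log2 signals minus the 75th percentile of the array, so 0 is the level below which 75% of the probes of that array lie. The share of spots well above background ran from 57.0% to 62.4% by array, no spot was saturated, and replicate arrays correlated at 0.998 to 0.999 with a median SD of 0.0346 to 0.0456 log2 units. All NPC arrays lay on 1 slide and all 72 h arrays on another, so stage and slide cannot be told apart. On each slide the EGFP arrays took positions 1 and 2 and the W20 arrays positions 3 and 4. W20 and position on the slide therefore cannot be told apart either. Of the neural progenitor markers, 8 of 11 were well above background on both arrays in each NPC group, 10 in EGFP cells and 9 in W20 cells at 72 h, while Olig2 was not on any array. Markers of endothelial cells (0 of 6 in NPC, 2 in EGFP and 1 in W20 cells at 72 h) and immune cells (1 of 4 in every group) were mostly below background. Mesenchymal markers moved with W20: 7 of 7 were lower in W20 NPC and 6 of 7 at 72 h. Their summed level, in multiples of the 75th percentile, was 147 to 167 in EGFP NPC, 98.6 to 101 in W20 NPC, 134 to 137 in EGFP cells at 72 h and 88.9 to 91.7 in W20 cells at 72 h. Lum was not above background in W20 NPC or at 72 h, nor Postn in W20 cells at 72 h. The part of these cells in the family's differences was not tested, and in bulk RNA fewer cells of a type and less RNA per cell cannot be told apart.

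**Figure D1:**
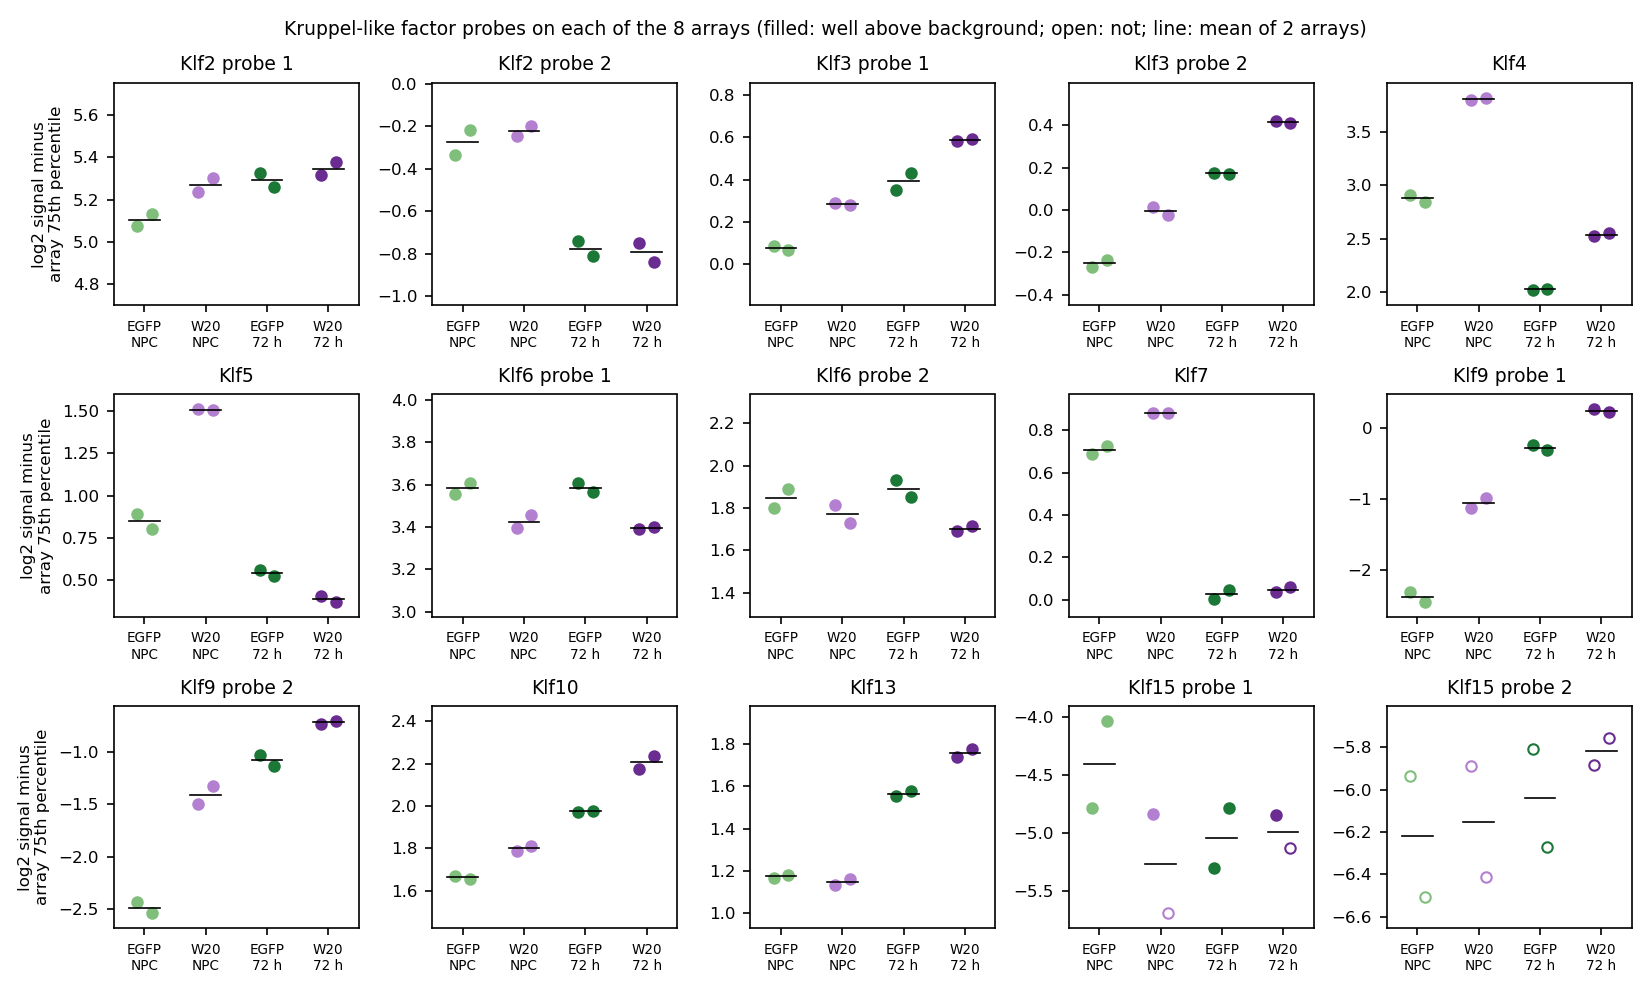
Each panel plots 1 probe of the family as log2 signal minus the array's 75th percentile for the 8 arrays, with a line at the mean of the 2 arrays of a group and open points where the spot was not well above background. Klf4 is highest in W20 NPC (3.80 and 3.82) and lowest in EGFP cells at 72 h (2.01 and 2.03), whereas Klf9 probe 1 climbs from -2.31 and -2.46 in EGFP NPC to 0.27 and 0.23 in W20 cells at 72 h.

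Several questions follow from the design: how the family differed between W20 and EGFP cells, how it moved over the 72 h, and whether the W20 difference depended on the stage. In W20 NPC, 7 of the 10 genes were higher than in EGFP NPC, 1 was lower and 2 did not pass (limma, Benjamini-Hochberg adjusted p under 0.05 over all probes). Over all 13617 genes the shares were 29.6% higher and 22.1% lower, 51.7% called in all. By probe, 9 of 14 were higher and 1 lower, against 26.6% and 19.2% of all probes, 45.8% in all. The median difference was 0.17 for the family and 0.04 for all genes. Most of the family's differences were small; those of Klf9, Klf4 and Klf5 were not, and stood 78th, 213th and 451st from the top of the 13617 genes.

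Klf4, the reprogramming and pluripotency factor, read 2.91 and 2.84 in EGFP NPC, 3.80 and 3.82 in W20 NPC, 2.01 and 2.03 in EGFP cells at 72 h and 2.52 and 2.55 in W20 cells at 72 h. The 4 groups did not overlap: both NPC groups lay above both 72 h groups, and W20 lay above EGFP at each stage. In NPC the W20 difference was 0.94 ± 0.037 log2 units (SE, n = 2 arrays per group), or 1.91-fold, at an adjusted p of 0.000155 by limma. It stayed called in all 19 alternative settings, with an adjusted p of at most 0.0267.

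Klf5, which shares many targets with Klf4 in stem cells, read 0.89 and 0.81 in EGFP NPC and 1.51 and 1.51 in W20 NPC. At 72 h it read 0.56 and 0.53 in EGFP cells and 0.41 and 0.37 in W20 cells, so the order of W20 and EGFP was turned, with no overlap at either stage. The difference in NPC was 0.66 ± 0.042 (1.58-fold, limma adjusted p = 0.00036), called in all 19 settings. Klf2, the third of the stem-cell trio, gave 5.08 and 5.13 in EGFP NPC and 5.23 and 5.30 in W20 NPC on probe 1, a difference of 0.17 ± 0.048 (adjusted p = 0.0368, limma). That call ended in 12 of 19 settings at adjusted p-values of 0.0517 to 0.731, among them when any of the 4 NPC arrays or either EGFP 72 h array was left out (0.0517 to 0.165), and the difference was 0.03 at its lowest. Klf2 probe 2 differed by 0.05 ± 0.059 and did not pass (adjusted p = 0.5).

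Klf9, a hormone-responsive repressor that rises as neurons mature, showed the family's largest W20 difference. Probe 1 read -2.31 and -2.46 in EGFP NPC, -1.13 and -0.98 in W20 NPC, -0.23 and -0.31 in EGFP cells at 72 h and 0.27 and 0.23 in W20 cells at 72 h. Probe 2 read -2.43 and -2.54, -1.49 and -1.33, -1.02 and -1.13, and -0.73 and -0.70 in the same order. Both probes gave the same order of groups with no overlap: EGFP NPC, W20 NPC, EGFP at 72 h, W20 at 72 h. In NPC the difference was 1.33 ± 0.074 on probe 1 (2.51-fold, adjusted p = 0.000274, limma) and 1.08 ± 0.075 on probe 2 (2.11-fold, adjusted p = 0.000444). Both calls held in all settings tried, 19 for probe 1 and 18 for probe 2, although normexp background correction lowered probe 2 to 0.70.

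The other members differed by less than 0.3 log2 units in NPC, apart from the dim Klf15. Klf3 read 0.09 and 0.07 in EGFP NPC and 0.29 and 0.28 in W20 NPC on probe 1, and -0.27 and -0.24 against 0.01 and -0.02 on probe 2. Its differences of 0.21 ± 0.038 and 0.25 ± 0.033 passed (limma adjusted p = 0.00785 and 0.00259) and ended when arrays were scaled on spike-in spots (0.13 and 0.0751), the former also under crossed pairing of the NPC arrays (0.0512). Klf7, a neuronal activator, read 0.69 and 0.73 in EGFP NPC and 0.88 and 0.88 in W20 NPC. Its 0.18 ± 0.034 (adjusted p = 0.00985) ended in 4 of 19 settings, among them without EGFP NPC replicate 1 or W20 NPC replicate 2 (0.0525 and 0.0528). Klf10, induced early by TGF-beta, was higher by 0.14 ± 0.035 (adjusted p = 0.0253), and this ended in 11 of 19 settings, without any of the 4 NPC arrays among them (0.0725 to 0.118).

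Klf6, an activator with growth-suppressing roles, was the only member called lower in W20 NPC: probe 1 read 3.56 and 3.61 in EGFP cells and 3.39 and 3.46 in W20 cells, a difference of -0.16 ± 0.040 (adjusted p = 0.0238, limma). The call ended in 9 of 19 settings, among them without EGFP NPC replicate 2 or W20 NPC replicate 1 (0.114 and 0.112), and its size ran from -0.25 to -0.10 over the settings. Klf6 probe 2 overlapped between the groups (-0.08 ± 0.054, adjusted p = 0.296). Klf13, a Sin3-dependent repressor, read 1.17 and 1.18 against 1.13 and 1.16 and did not pass (-0.03 ± 0.033, adjusted p = 0.523). Klf15, which controls amino acid and glucose metabolism, was close to background: probe 1 read -4.78 and -4.03 in EGFP NPC and -4.83 and -5.69 in W20 NPC, where the last spot was not well above background. With an SE of 0.39 its -0.86 did not pass (adjusted p = 0.124), and this probe gives little precision. Klf15 probe 2 stayed at background level on all 8 arrays, from -6.50 to -5.75, and was not tested.

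At 72 h, of the 10 genes, 5 were higher in W20 cells, 2 were lower and 3 did not pass, against 26.0% higher, 22.9% lower and 48.9% called among all genes. By probe, 7 of 14 were higher and 3 lower, against 23.2% and 19.2%, 42.4% in all. The medians of the gene differences were 0.12 for the family and 0.03 for all genes. Klf4 was higher by 0.51 ± 0.037 (1.43-fold, adjusted p = 0.000489, limma), called in all 17 settings tried at adjusted p-values of at most 0.0105. Klf9 probe 1 was higher by 0.52 ± 0.074 (1.43-fold, adjusted p = 0.0038), also in all 17 settings. Klf9 probe 2 was higher by 0.36 ± 0.075 (adjusted p = 0.013), which ended without EGFP 72 h replicate 2 or W20 72 h replicate 2 (0.0551 and 0.0678) and with spike-in scaling (0.0791).

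The repressors Klf3, Klf10 and Klf13 were each called higher at this stage. Klf3 was higher by 0.19 ± 0.038 and 0.24 ± 0.033 on its probes, Klf10 by 0.23 ± 0.035 (adjusted p = 0.00484, limma) and Klf13 by 0.19 ± 0.033 (adjusted p = 0.00707). Klf10 read 1.97 and 1.98 in EGFP cells and 2.18 and 2.24 in W20 cells, and Klf13 1.56 and 1.58 against 1.74 and 1.77, with no overlap. With spike-in scaling none of the Klf3, Klf10 and Klf13 calls was kept (adjusted p = 0.209 and 0.115 for Klf3, 0.17 and 0.236 for the others), although every difference kept its sign. At 72 h the W20 arrays were also dimmer, with a 75th percentile of 829 and 829 intensity units against 940 and 903 on the EGFP arrays and 59.0% and 57.0% of spots well above background against 61.5% and 62.4%. The part of this in the differences was not tested beyond the scalings.

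Klf5 and Klf6 were the genes called lower in W20 cells at 72 h. For Klf5 the difference was -0.15 ± 0.042 (adjusted p = 0.0331, limma). It ended in 11 of 17 settings, at 0.0604 to 0.175, among them without any 72 h array or either W20 NPC array (0.0618 to 0.134). Klf6 was lower by 0.19 on both probes: probe 1 read 3.61 and 3.57 against 3.39 and 3.40 (-0.19 ± 0.040, adjusted p = 0.0142) and probe 2 read 1.93 and 1.85 against 1.69 and 1.72 (-0.19 ± 0.054, adjusted p = 0.0369). The first call ended without replicate 1 of either 72 h group (0.0574 and 0.0723) and with spike-in scaling. The second ended in 9 of 16 settings, without any of the 72 h arrays among them (0.0616 to 0.157). Klf2 (0.05 ± 0.048 and -0.02 ± 0.059), Klf7 (0.02 ± 0.034) and Klf15 (0.06 ± 0.387) did not pass.

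**Figure D2:**
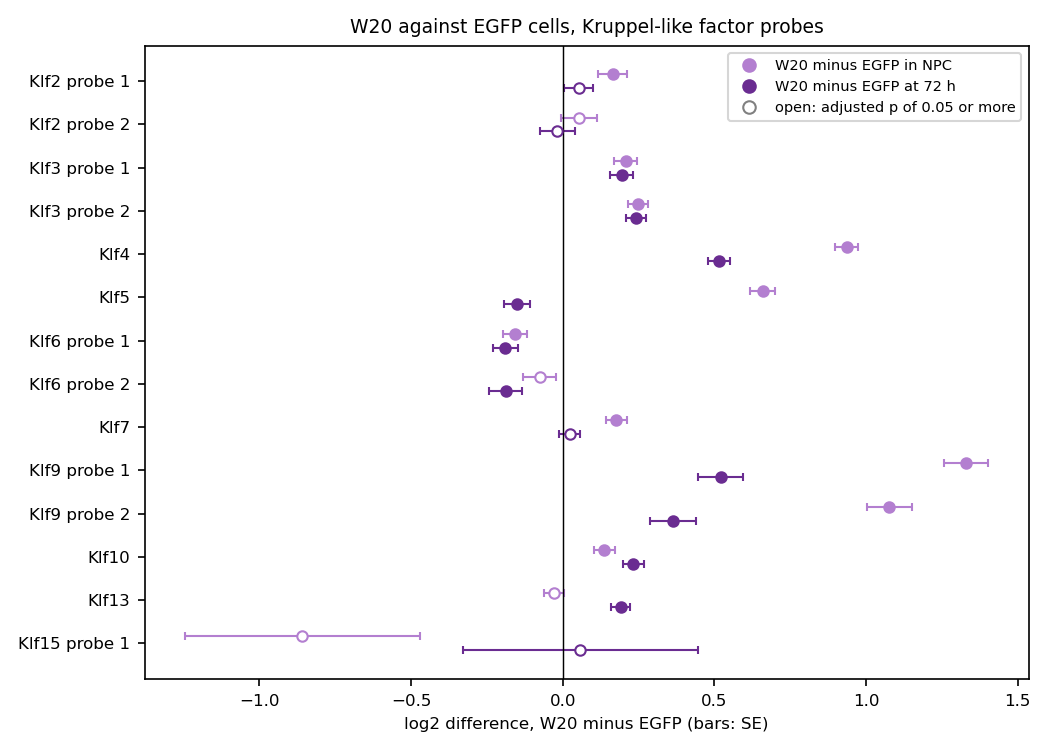
Points are log2 differences, W20 minus EGFP, of the 14 tested probes in NPC (light) and at 72 h (dark) with bars of 1 SE; open points have an adjusted p of 0.05 or more. Klf9 (1.33 and 1.08), Klf4 (0.94) and Klf5 (0.66) lie to the right in NPC, and at 72 h Klf4 and Klf9 probe 1 lie near 0.5 and Klf5 lies below 0.

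Klf4 was then set against each relative by subtracting the relative's log2 signal from that of Klf4 within each array, which takes array scaling out of the comparison. In NPC the W20 difference of Klf4 exceeded that of 11 of the 13 tested relative probes, fell short of 1 and could not be told from 1; among all probes tested the same way, Klf4 exceeded 94.4% and 94.8% were called in all. Klf4 exceeded Klf5 by 0.28 ± 0.044 (limma adjusted p = 0.0011) and Klf2 probe 1 by 0.77 ± 0.059 (adjusted p = 3.35e-05). The relative called above it was Klf9: Klf4 fell short of probe 1 by 0.39, written as -0.39 ± 0.067 (adjusted p = 0.00144), and differed from probe 2 by -0.14 ± 0.068 (adjusted p = 0.0909). With normexp the Klf9 probe 1 difference was -0.08 and not called (adjusted p = 0.447), and that of probe 2 turned to 0.22, also not called. At 72 h Klf4 exceeded 10 of 13 relatives and fell short of none, against 81.9% of all probes exceeded and 83.3% called. There Klf4 and Klf9 differed by -0.01 ± 0.067 on probe 1 (adjusted p = 0.936) and 0.15 ± 0.068 on probe 2 (adjusted p = 0.0804). Klf4 exceeded Klf5 by 0.67 ± 0.044 (adjusted p = 9.21e-05) at that stage.

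**Figure D3:**
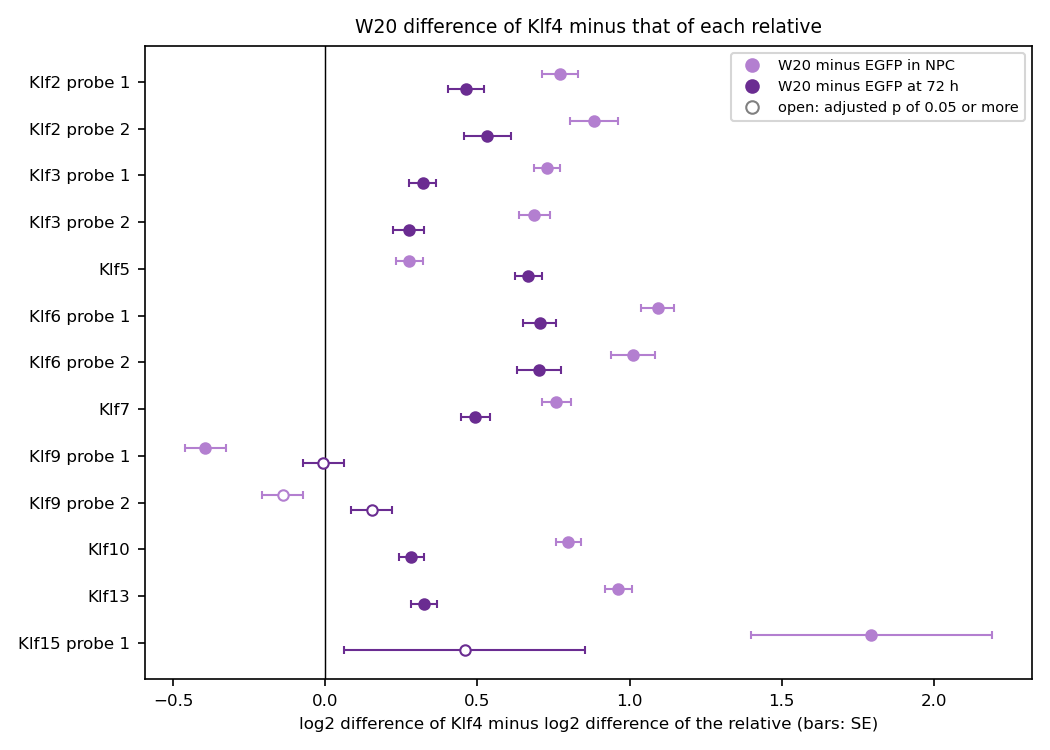
Points give the W20 difference of Klf4 minus that of each relative's probe in log2 units, from within-array differences, in NPC (light) and at 72 h (dark) with bars of 1 SE; open points have an adjusted p of 0.05 or more. Points lie to the right of 0 except Klf9 probe 1 (-0.39 in NPC and -0.01 at 72 h) and Klf9 probe 2 in NPC (-0.14). At 72 h Klf9 probe 2 is at 0.15.

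Over the 72 h members moved both ways, in shares near those of all genes. Counted by the brightest probe, 5 genes were higher in EGFP cells, 3 lower and 2 did not pass, with Klf2, whose other probe was called lower, among the 5. The shares were 35.0% higher, 32.7% lower and 67.7% called among all genes. In W20 cells 4 rose, 3 fell and 3 did not pass, against 36.7%, 36.5% and 73.1%. By probe, 7 rose and 4 fell in EGFP cells, against 32.1%, 31.3% and 63.4% of all probes, and 6 and 4 in W20 cells, against 34.0%, 35.8% and 69.7%. All these differences could as well be differences between slides. By the labels, Dox and the LIF medium also went to the 72 h groups alone, so their parts cannot be told apart either. The genes that rose in both kinds of cells were Klf3, Klf9, Klf10 and Klf13, and those that fell in both were Klf4, Klf5 and Klf7. Of the 5 activators, Klf6 thus was not among those that fell. Klf2 was not either by its brightest probe, but its other probe was called lower in both kinds of cells. Grouping by partner was done with the values known and carries no test. Markers of other cell types moved over the same interval. The summed level of 4 astrocyte markers went from between 2.03 and 2.08 in EGFP NPC to between 0.828 and 0.896 at 72 h. In W20 cells it went from between 1.93 and 2.02 to between 0.854 and 0.873. Of the 3 tested, 3 were lower at 72 h in EGFP cells, but 2 were lower and 1 higher in W20 cells. Aqp4 was not above background in any group, nor Gfap in W20 NPC or either 72 h group. The sum of 4 oligodendrocyte markers went from 1.79 on both arrays to between 3.31 and 3.42 in EGFP cells, and from between 1.82 and 1.92 to between 4.24 and 4.32 in W20 cells, with Mog not above background in any group. That of 6 endothelial markers went from between 0.0317 and 0.0335 to between 0.159 and 0.16 in EGFP cells. In W20 cells it went from between 0.0309 and 0.0384 to between 0.196 and 0.212. None of these 6 was above background in either NPC group, and Pecam1, Cdh5, Emcn and Tie1 were not in any group. The part of these cell types in the family's changes was not tested. The W20 comparisons, the changes over 72 h and the difference between stages share their arrays.

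Klf4 fell by 0.86 log2 units in EGFP cells (SE 0.037, adjusted p = 2.07e-05, limma) and dropped by 1.28 in W20 cells (adjusted p = 3.44e-06), a fall of 1.81-fold and 2.42-fold. Klf5 fell by 0.31 in EGFP cells (SE 0.042, adjusted p = 0.00142) and dropped by 1.12 in W20 cells (adjusted p = 7.68e-06). Klf7 read 0.00 and 0.05 in EGFP cells and 0.04 and 0.06 in W20 cells at 72 h, and decreased by 0.68 and by 0.84 (SE 0.034 for both, adjusted p = 3.42e-05 and 1.07e-05). These 6 calls held in all 17 settings tried. Klf4 fell further than Klf7, by -0.18 ± 0.048 in EGFP cells (adjusted p = 0.0138) and -0.44 ± 0.048 in W20 cells (adjusted p = 0.000154). The former ended without EGFP NPC replicate 1 or EGFP 72 h replicate 2 (0.0597 and 0.0667) and with normexp. Against Klf5 in W20 cells it fell further by -0.16 ± 0.044 (adjusted p = 0.0129), which ended without W20 NPC replicate 2 or W20 72 h replicate 1 (0.0584 and 0.0717) and with normexp. Within arrays, the change of Klf4 lay below that of 12 of 13 relative probes in EGFP cells and all 13 in W20 cells, rising ones among them. Of all probes, 88.1% and 92.6% were called in either direction, and Klf4 was the higher against 4.52% and 3.79%.

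Among the genes that rose, Klf9 stood apart in size: 2.11 ± 0.074 on probe 1 and 1.41 ± 0.075 on probe 2 in EGFP cells (4.33-fold and 2.65-fold, adjusted p = 1.07e-05 and 4.06e-05, limma). In W20 cells it rose by 1.30 ± 0.074 and 0.69 ± 0.075 (2.47-fold and 1.62-fold), from a start that was already higher. Klf13 rose by 0.39 ± 0.033 and 0.61 ± 0.033 in EGFP and W20 cells, Klf10 by 0.31 ± 0.035 and 0.41 ± 0.035, and Klf3 probe 1 by 0.31 ± 0.038 and 0.30 ± 0.038. Klf3 probe 2 gave 0.43 ± 0.033 and 0.42 ± 0.033. All had adjusted p-values under 0.001 and held in every setting tried. Klf6 stayed within 0.07 log2 units on both probes and did not pass in either kind of cell.

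The probes of Klf2 disagreed over the 72 h. Probe 1 went from 5.08 and 5.13 to 5.33 and 5.26 in EGFP cells, a rise of 0.19 ± 0.048 (adjusted p = 0.0163, limma). That call ended in 4 of 17 settings: without EGFP NPC replicate 1, without EGFP 72 h replicate 1, with quantile normalization and with spike-in scaling. Probe 2 went from -0.33 and -0.22 to -0.74 and -0.81, a fall of 0.50 (SE 0.059, adjusted p = 0.000774) that stayed called in all 16 settings tried. In W20 cells probe 1 differed by 0.08 ± 0.048 and did not pass (adjusted p = 0.201), and probe 2 fell by 0.57 (adjusted p = 0.000362). Both probes carry the same accession, so no direction is given for Klf2 over this interval.

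**Figure D4:**
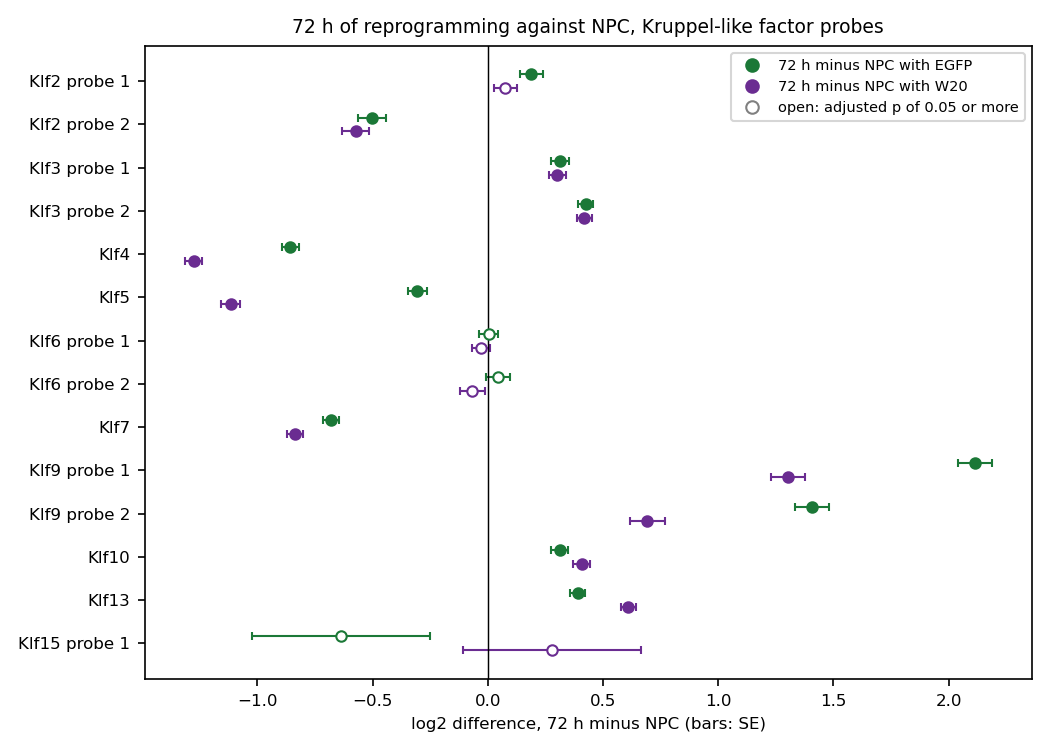
Points are log2 differences, 72 h minus NPC, of the 14 tested probes in EGFP cells (green) and W20 cells (purple) with bars of 1 SE; open points have an adjusted p of 0.05 or more. Klf9 lies far to the right (2.11 and 1.30 on probe 1), Klf4 (-0.86 and -1.28), Klf5 and Klf7 lie to the left, and the Klf2 probes lie on opposite sides in EGFP cells.

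The W20 difference itself depended on the stage for 4 of the 10 genes, 1 of them with a larger and 3 with a smaller or turned difference at 72 h, against 11.8% and 14.1% of all genes and 26.0% called in all. By probe it was larger for 1 and smaller for 4 of 14, against 10.3% and 11.6% of all probes, 21.9% in all. It was smaller at 72 h by 0.42 for Klf4, written as -0.42 ± 0.052 (adjusted p = 0.0053, limma), and by 0.81 for Klf9 probe 1 (-0.81 ± 0.104, adjusted p = 0.0059). Klf9 probe 2 gave -0.71 ± 0.106 (adjusted p = 0.009), or -0.43 with normexp. For Klf5 it went from above to below 0 (-0.81 ± 0.059, adjusted p = 0.00125). Klf13 was the exception, with 0.22 ± 0.046 (adjusted p = 0.026), which ended in 11 of 16 settings, without any array but W20 72 h replicate 1 among them (0.0655 to 0.0876). The Klf4 call ended with spike-in scaling alone (adjusted p = 0.0816). Klf3 (-0.01 ± 0.054 and -0.01 ± 0.046), Klf6, Klf7, Klf10, Klf2 and Klf15 did not pass. Within arrays, the difference between stages of Klf4 was set against 13 relatives and 12 were called, against 66.7% of all probes. It was above that of Klf5 (0.39 ± 0.063, adjusted p = 0.00354) and of both Klf9 probes, where Klf4 was the higher against 2.79% of all probes, and below the other 9. With normexp 6 relatives were called, and neither Klf9 probe was among them (adjusted p = 0.304 and 0.9). The call on Klf9 probe 2 also ended without any array but W20 NPC replicate 1 and EGFP 72 h replicate 2 (0.0638 to 0.106). The calls on Klf2 probe 2 and Klf6 probe 2 each ended when any of 5 arrays was left out (0.0724 to 0.114), among them EGFP NPC replicate 2, W20 NPC replicate 2, EGFP 72 h replicate 2 and W20 72 h replicate 1 for both, with W20 NPC replicate 1 for Klf2 and W20 72 h replicate 2 for Klf6. That on Klf2 probe 1 ended without W20 NPC replicate 1 or replicate 2 of either 72 h group (0.0532 to 0.066), and that on Klf7 without W20 NPC replicate 2 or EGFP 72 h replicate 1 (0.0518 and 0.0562).

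Other zinc-finger relatives were looked at as well. Of 16 further Klf and Sp genes, 15 had a probe and 12 were tested; in W20 NPC 2 were higher and 3 lower (median -0.04), against 29.6% and 22.1% of all genes (median 0.04). At 72 h 4 were higher and 0 lower (median 0.25), against 26.0% and 22.9% (median 0.03), and these shares of all genes hold for each list that follows. Sp8, a forebrain patterning factor, was higher by 2.10 ± 0.165 in NPC (adjusted p = 0.000599, limma), where only 1 of 2 EGFP arrays was well above background, and by 0.85 ± 0.165 at 72 h (adjusted p = 0.0107; 0.0557 without EGFP 72 h replicate 1). With normexp the Sp8 differences were 0.60 and 0.48, both still called. Klf12, a CtBP-binding repressor, was lower by 1.10, written as -1.10 ± 0.138, in NPC (adjusted p = 0.00218; -0.57 with normexp) and higher by 0.66 ± 0.138 at 72 h (adjusted p = 0.0138; 0.42 with normexp), the latter lost without EGFP 72 h replicate 1 or 2 or W20 72 h replicate 1 (0.0558 to 0.0659). Klf8 was higher at 72 h alone, by 0.73 ± 0.063 (adjusted p = 0.000843), against 0.13 ± 0.063 in NPC (adjusted p = 0.157); the difference between the stages passed too (0.61 ± 0.089, adjusted p = 0.00873).

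Of the coregulators and turnover factors of the family, 16 of 18 were tested; 3 were higher and 4 lower in W20 NPC (median -0.01), and 3 and 3 at 72 h (median 0.04). The 7 and 6 called genes compare with 51.7% and 48.9% of all genes called. Fbxo32, a ubiquitin ligase subunit that targets Klf4 for degradation, had the largest difference, -1.22 ± 0.045 in NPC (adjusted p = 0.000152, limma) and -0.59 ± 0.045 at 72 h (adjusted p = 0.000595). Btrc, another such subunit, was lower in NPC (-0.27 ± 0.068, adjusted p = 0.0233), a call that ended without either EGFP NPC array or W20 NPC replicate 2 (0.0854 to 0.107). Kat2b, an acetyltransferase, was lower at 72 h (-0.26 ± 0.064, adjusted p = 0.0242; lost without either EGFP 72 h array or W20 72 h replicate 1, 0.0586 to 0.111).

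Genes of the LIF, STAT3 and ERK routes, through which Klf4, Klf5 and Klf2 are controlled in stem cells, were tested in full: 9 of 15 were lower and 2 higher in W20 NPC (median -0.33), against 22.1% lower and 29.6% higher among all genes. At 72 h 5 were lower and 5 higher (median 0.00), against 22.9% and 26.0%. The 2 called genes of largest difference at each stage were ERK feedback inhibitors. Spry4 was lower by 1.39 (-1.39 ± 0.154, adjusted p = 0.00151, limma; -0.82 with normexp) in NPC and higher by 0.50 ± 0.154 at 72 h (adjusted p = 0.0475), a call that ended in 10 of 17 settings, without any array but W20 72 h replicate 1 among them (0.0506 to 0.17). Dusp6, an ERK phosphatase, gave -0.96 ± 0.041 and -0.57 ± 0.041 (adjusted p = 0.000172 and 0.000483). Spry2 gave -0.85 in NPC and -0.63 ± 0.040 at 72 h (limma adjusted p = 0.000194 and 0.000347).

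For TGF-beta, which induces Klf10, 13 genes were tested: 2 higher and 4 lower in W20 NPC (median -0.05), against 29.6% and 22.1% of all genes, and 1 and 6 at 72 h (median -0.26), against 26.0% and 22.9%. Tgfb2, a ligand, was lower in W20 NPC (-1.97 ± 0.084, adjusted p = 0.000172, limma) and did not pass at 72 h (0.17 ± 0.084). Ccn2, an early target, was lower at both stages (-0.87 ± 0.052 and -1.06 ± 0.052). So was Tgfb3 (-0.41 in NPC and -0.64 ± 0.046 at 72 h, limma adjusted p = 0.00156 and 0.000489). Of the hormone receptor genes, which are inputs of Klf9, and other targets of these receptors, 11 were tested. In NPC 1 was higher and 4 lower (median 0.00), and at 72 h 2 and 4 (median -0.08), against the same shares of all genes. Thra, a thyroid hormone receptor, was lower in NPC (-0.40 ± 0.074, adjusted p = 0.00837, and 0.0601 under crossed pairing of the NPC arrays), as was Per1 (-0.35 ± 0.045). At 72 h Per1 was lower too (-0.22, limma adjusted p = 0.0141), a call that ended in 5 of 17 settings. The glucocorticoid target Tsc22d3 was higher at 72 h (0.77 ± 0.046, adjusted p = 0.00032) while another, Sgk1, was lower (-0.54 ± 0.087, adjusted p = 0.00568).

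Among 22 tested textbook targets of the family, 9 were higher and 7 lower in W20 NPC (median 0.07), against 29.6% and 22.1% of all genes, and 7 and 7 at 72 h (median -0.02), against 26.0% and 22.9%. Cdkn1a, the cell cycle inhibitor that Klf4 activates, was higher at both stages (1.09 ± 0.042 and 1.12 ± 0.042, adjusted p = 0.000152 and 0.000122, limma). Krt19, an epithelial keratin, was higher in NPC (1.20 ± 0.061, adjusted p = 0.000227) and did not pass at 72 h (0.06 ± 0.061). Tagln, a smooth muscle gene, was lower in NPC (-0.79, limma adjusted p = 0.000775) and at 72 h (-1.81 ± 0.069, adjusted p = 0.000122).

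Of the pluripotency partners of Klf4, 10 of 15 were tested: 1 higher and 5 lower in W20 NPC (median -0.32), against 29.6% and 22.1% of all genes, and 2 and 2 at 72 h (median 0.15), against 26.0% and 22.9%. Pou5f1 (Oct4) was at background level on all 8 arrays and was not tested. Sox2 was lower in W20 NPC (-0.71 ± 0.049, adjusted p = 0.000436, limma) and did not pass at 72 h (0.14 ± 0.049, adjusted p = 0.0668). Myc was higher at both stages (0.45 ± 0.045 and 0.61 ± 0.045), with another of its probes called the other way at 72 h. Nr5a2 was lower in NPC (-1.08 ± 0.238, adjusted p = 0.0148; -0.52 with normexp; lost without either EGFP NPC array or W20 NPC replicate 1, 0.0625 to 0.0641). In W20 cells at 72 h the level of Esrrb was lower by at least 1.15-fold, where it was not well above background, a bound set by the lowest signal that counts as well above it (fit: -1.67 ± 0.197, adjusted p = 0.00209; -0.19 with an adjusted p of 0.0917 with normexp). Tfcp2l1 was higher at 72 h (1.20 ± 0.305, adjusted p = 0.026), which ended without any of the 72 h arrays (0.0751 to 0.109).

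Beyond the family, 4516 genes passed in both W20 comparisons, and the 5 whose 4 group means lay closest to those of Klf4 were named, each gene centred on its own mean. Klf4 stood at 0.07, 1.00, -0.79 and -0.28 in EGFP NPC, W20 NPC, EGFP at 72 h and W20 at 72 h. Apobec1, an RNA-editing cytidine deaminase, was nearest with 0.03, 1.04, -0.94 and -0.13, a Euclidean distance of 0.218. M1ap followed at 0.228, the heparan sulfate proteoglycan gene Gpc1 at 0.295, Rgs11, a regulator of G-protein signalling, at 0.307 and Gls2, a mitochondrial glutaminase, at 0.318. Of the 5, Apobec1 kept both calls in every setting. At 72 h the calls ended for Gpc1 in 12 settings (adjusted p up to 0.223), without any 72 h array or either W20 NPC array among them. They ended for M1ap in 4 (up to 0.111), among them without EGFP 72 h replicate 2 or either W20 72 h array, and for Gls2 in 3 (up to 0.141), among them without EGFP 72 h replicate 2 or W20 72 h replicate 1. For Rgs11 the call ended in 4 (up to 0.0932), without EGFP 72 h replicate 1 and with normexp among them, and normexp ended its call in NPC too (0.068). In the family Klf5 was nearest, at 0.622 and rank 75 of the 4516. Its W20 call at 72 h was lower, unlike that of Klf4, and ended in 11 of 17 settings. Klf7 came next at 0.711 but was not among the 4516, and Klf9 was farthest at 2.79. Klf4 and Klf9 were thus both higher with W20 at each stage and still had the least alike profiles in the family, since over the 72 h 1 fell and the other rose.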

How the data were processed

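Total RNA from 8 samples was hybridised with Cy3 to 4x44K mouse arrays, per the labels. The scanner files deposited by the authors hold spot intensities from Feature Extraction 10.7.3.1 (Agilent), per the file headers, and the processed signal used here is background-corrected there. It was taken as log2, spots of a probe were averaged and the 75th percentile of its array was taken off. Accessions were matched to RefSeq (GRCm38.p6), which named 27584 of 41174 probes for 18842 genes. The fit was limma 3.58.1 in R 4.3.3 on 4 group means, with 4 residual and 1.56 prior degrees of freedom; it was checked on simulated data. The threshold was an adjusted p of 0.05 over 25725 probes, two-sided, in 5 comparisons. "Higher" and "lower" refer to it.

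The authors' deposited value table, on a log2 scale with centring unstated, equalled the scanner values of the 4 NPC arrays within 0.01 for 100% of probes after a shift of 9.66 to 9.71, so its direction is that of the signal. Its column medians were -3.79 and -3.73 (EGFP NPC), -3.82 and -3.79 (W20 NPC), -3.78 and -3.88 (columns named for EGFP 72 h) and -3.83 and -3.91 (named for W20 72 h). The columns named for 72 h arrays did not hold those arrays (4.13% to 14.1% within 0.01). They equalled the mean of both scanner arrays of EGFP NPC, EGFP 72 h, W20 NPC and W20 72 h in turn, within 0.01 for at least 99.978% of probes. The table therefore served as an alternative in NPC only, and the identity of single 72 h arrays rests on the scanner files.

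Members, gene lists and the naming rule were chosen with earlier results of these data known. Named were all member probes, from each list the 2 called genes of largest size per W20 comparison, Pou5f1, Sox2 and Myc, and the 5 genes nearest Klf4. The planned normexp alternative (offset 50) used the median spot signal, since the files hold no mean signal column. Precision is limited by 2 arrays per group. The median SE of a difference was 0.0574 log2 units.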

Additional observations from a re-analysis of the deposited data

Results flagged for a closer look

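The W20 difference of 4 genes of the family differed between the stages, by the test of that difference itself (limma, all 8 arrays, Benjamini-Hochberg over all probes). It was lower at 72 h than in NPC by -0.42 for Klf4 (adjusted p = 0.0053), by -0.81 for Klf5 (adjusted p = 0.00125), by -0.81 for Klf9 probe 1 (adjusted p = 0.0059) and by -0.71 for Klf9 probe 2 (adjusted p = 0.009). It was higher at 72 h by 0.22 for Klf13 (adjusted p = 0.026). Stage and slide cannot be told apart. Both arms of each W20 difference lay on 1 slide, but at different positions, so W20 and position cannot be told apart either. Groups of 2 arrays are too small for a test of single arrays that stand apart.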

How the results depend on the processing

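Of 70 results of the member probes, 46 were called, 29 of these in every setting tried, 2 of the others gained a call somewhere and 0 turned in direction with a call. Of 65 differences between Klf4 and a relative, 59 were called and 49 kept that in every setting. The setting that ended most calls was spike-in scaling: the called member probes went from 10 to 4 for W20 in NPC (4 higher), from 10 to 2 at 72 h (both higher) and from 5 to 3 for the difference between stages, and all probes from 11780 to 6744, from 10910 to 5630 (2144 higher and 3486 lower, where the main split was 5976 and 4934) and from 5632 to 2249. For the difference between stages, all probes called were 3637 with normexp (2086 higher and 1551 lower, against 2641 and 2991), 3706 with median scaling, 2885 with no filter and 3127 to 4289 with 1 array left out; Klf4 and its relatives went from 12 to 6 with normexp. With no filter, 16512 probes were called at 72 h, 12029 of them higher. With 1 probe per gene, 7551, 7182, 9518 and 10163 genes were called for W20 in NPC, W20 at 72 h and the change over 72 h in EGFP and W20 cells, out of fewer tested. Leaving out arrays gave 7 to 10 member probes for W20 in NPC and at 72 h, 10 or 11 over the 72 h in EGFP cells, 10 in W20 cells and 4 to 5 for the difference between stages. With normexp Sp8 turned over the 72 h in EGFP cells (0.90 to -0.0101) and Esrrb in the difference between stages (-1.08 to 0.26); the cause was not tested.

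Replicate numbers did not pair all 4 groups alike. Deviations of same-numbered arrays correlated at 0.223 to 0.255 among EGFP NPC, EGFP 72 h and W20 72 h. Between W20 NPC and each of these groups they correlated at -0.142 to -0.0501. The replicate block ended 1 member call, Klf6 probe 2 at 72 h (-0.19, adjusted p = 0.0588), and took the relatives called against Klf4 in the difference between stages from 12 to 9. Under crossed pairing of the NPC arrays, chosen after seeing the data, 6 member probes were called, 5 higher and 1 lower. The 5 were Klf3 probe 2, Klf4, Klf5 and both Klf9 probes, and the lower one was Klf15 (adjusted p = 0.0269), which did not pass without the pairing. Klf2, Klf3 probe 1, Klf6, Klf7 and Klf10 were not called. The slide could not be fitted as a block, since each slide held 1 stage. Klf15, at or near background, and 2 arrays per group limit what could be detected.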
